A study of Rattus norvegicus with 26 samples.

Results

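Lipoprotein lipase (Lpl), hepatic lipase (Lipc) and the angiopoietin-like proteins Angptl4 and Angptl8 were followed in inguinal white adipose tissue and liver of rats on a shrinking feed ration. The genes were taken as the probe sets of the array annotated to these single symbols. All 4 genes were found, with 1 probe set each, among 14217 genes measured. By the series description each animal was hybridised to 1 array, and the 26 arrays split evenly, 13 restricted rats and 13 controls. All rats were inbred males of the Long-Evans (Turku/AB) strain, 11 to 15 weeks old at the start, individually housed, and the controls too were given the corn oil vehicle, 4 mL/kg, on day 0. The adipose day 4 and liver day 4 groups each held 4 restricted rats, whose daily portion fell from 18 g to 6 g of pelleted feed, and 4 controls with free access to feed. The liver day 10 groups each held 5 rats; the restricted rats had unlimited feed on day 0 and portions of powdered feed that fell from 16 g to 1 g thereafter. Portions were given in a single meal during the light hours. No label identifies the animals, so the description alone says that the adipose and day 4 liver arrays are of different rats.

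Lipoprotein lipase is made mainly by adipocytes and muscle cells and is carried to the capillary wall, where it splits the triglycerides of chylomicrons and very-low-density lipoproteins so that the tissue can take up the fatty acids. Hepatic lipase is a related enzyme secreted by hepatocytes that acts on lipoprotein remnants and high-density lipoproteins. Angptl4 inactivates lipoprotein lipase, and in fasted rodents it lowers the activity of the enzyme in adipose tissue. Angptl8 is induced by feeding and insulin in liver and fat, and it takes part in restraining lipoprotein lipase in muscle.

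Values are log2 expression values, and changes are restricted minus control rats with their standard error (SE) from limma. Rises and falls are named only for p-values below 0.05 after adjustment over all 31042 probe sets of the array. The arrays of the 3 sets (adipose day 4, liver day 4, liver day 10) were processed separately by the authors. Array medians were 4.01 to 4.11 for adipose tissue and 3.16 to 3.32 for liver, and the lowest correlation of any pair of arrays in a set was 0.983. All 8 measured adipocyte markers lay above the median of all probe sets in the adipose groups, and all 7 measured hepatocyte markers did so in the liver groups. Their mean levels were 13.47 in control adipose tissue and 14.74 and 14.58 in control liver at day 4 and day 10. Skeletal muscle markers, which would mark another main source of lipoprotein lipase, averaged 2.35 in control and 2.38 in restricted adipose tissue, with all 7 at or below the median. In bulk tissue samples such as these, fewer cells of a type and less RNA per cell cannot be told apart.

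In the liver Angptl8 fell in both regimens, 12.0-fold after 4 days and 6.29-fold after 10 days, and Lipc fell slightly after 4 days (1.24-fold). Angptl4 was higher in every restricted than in every control adipose array, as were 2.20% of all probe sets. Its difference there was 1.99-fold on average, and it was lower on average in restricted livers. None of these Angptl4 differences passed the test within its set, but the difference between its change in adipose tissue and in liver did. That call was lost in 12 of 16 fits without a single array, and the Lipc call in 7 of 8. Lpl did not pass the test in any of the 3 comparisons. The plot of every array shows the members side by side.

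**Figure D1:**
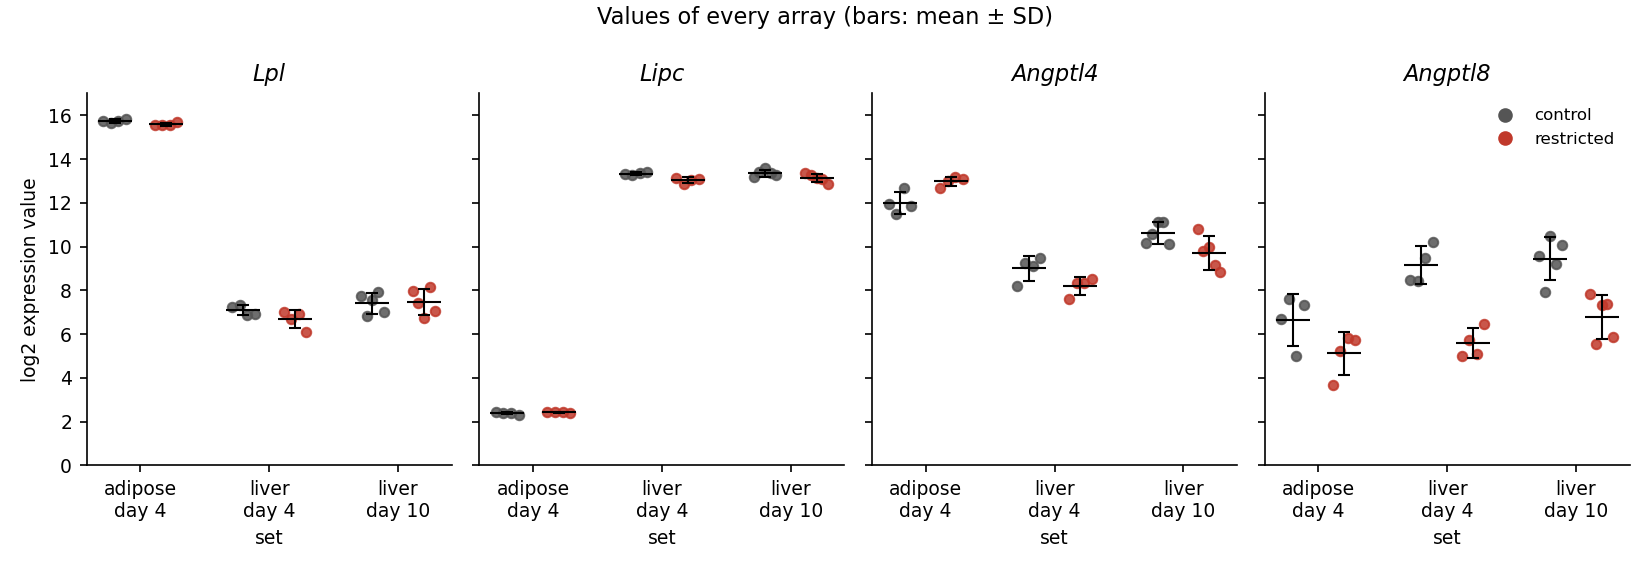
Log2 expression values (vertical axis) of Lpl, Lipc, Angptl4 and Angptl8 on every array, by set (horizontal axis); grey points are control and red points restricted rats, and black bars give the mean ± SD of each group of 4 or 5 arrays. Restricted livers lie below all control livers for Angptl8, with group means of 5.57 against 9.16 at day 4 and 6.80 against 9.45 at day 10.

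The stretches just upstream of the genes are shown as a description of their letters. A link between these letters and the changes under restriction was not tested. RefSeq promoter sequences (build GRCr8) were matched for 3 of the 4 genes, Angptl4, Angptl8 and Lipc, and the 250 bases before the start site are printed 5′ to 3′ on the strand of the gene. The regions are chr7:15258682-15258931 (minus strand) for Angptl4, chr8:28652305-28652554 (plus strand) for Angptl8 and chr8:80516286-80516535 (minus strand) for Lipc. Capitals mark matches to GTTAAT, a half-site of the liver-enriched factor HNF1, and to the TATA motif TATAAA, both searched on both strands.
Angptl4: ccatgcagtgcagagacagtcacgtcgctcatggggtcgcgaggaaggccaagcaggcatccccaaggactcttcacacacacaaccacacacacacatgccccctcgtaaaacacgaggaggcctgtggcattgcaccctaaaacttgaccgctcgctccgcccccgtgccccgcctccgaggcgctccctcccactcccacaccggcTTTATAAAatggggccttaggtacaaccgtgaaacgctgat
Angptl8: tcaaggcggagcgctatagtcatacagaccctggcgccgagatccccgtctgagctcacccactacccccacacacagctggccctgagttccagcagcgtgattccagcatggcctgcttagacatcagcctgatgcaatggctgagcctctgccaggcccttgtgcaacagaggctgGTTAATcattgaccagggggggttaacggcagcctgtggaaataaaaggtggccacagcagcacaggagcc
Lipc: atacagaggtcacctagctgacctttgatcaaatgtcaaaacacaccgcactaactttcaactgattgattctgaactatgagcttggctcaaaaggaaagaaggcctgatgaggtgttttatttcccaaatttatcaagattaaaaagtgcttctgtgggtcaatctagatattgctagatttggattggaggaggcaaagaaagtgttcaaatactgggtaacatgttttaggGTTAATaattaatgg

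GTTAAT was present in Angptl8, from base -71 to -66 before the start site, and in Lipc, from base -15 to -10, and had no match in Angptl4. It occurred in 2160 of 33469 promoters of the same length (6.45%), and it was chosen after these letters had been read. TATAAA was present in Angptl4, with overlapping matches on both strands between bases -41 and -34, and in 12.9% of all promoters. The other motifs were also searched on both strands. AGGTCA, the half-site of many nuclear receptors, was matched in Lipc on either strand (14.1% of all promoters), and the GC box CCGCCC in Angptl4 (30.5%). The E-box CACGTG (5.59% of all promoters) and the FOXO motif GTAAACA (3.21%) had no match in these 3 windows. A match is a description of the letters and not of a factor bound there.

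The first question was what the regimens did to the 2 lipases. In adipose tissue the Lpl values were 15.73, 15.63, 15.73 and 15.83 in controls 1 to 4 and 15.56, 15.57, 15.56 and 15.68 in restricted rats 1 to 4. Restricted rats 1, 2 and 3 lay below all controls, and restricted 4 lay among them. The change was -0.13 (SE 0.05, 95% interval -0.25 to -0.02, limma adjusted p = 0.541), with an exact two-sided permutation p of 0.0571 for 4 against 4 arrays, a design whose smallest possible p is 0.0286. The interval spans 0.841 to 0.986 times the control level. These values lay within 1 log2 unit of the highest value on the adipose arrays, which was at least 16.28 on each. Beside them, the mean of the 8 adipocyte markers was 13.25 to 13.71 in controls and 12.89 to 13.13 in restricted rats, with 0 of 8 called and a median change of -0.216. The markers did not move alike: the glucose transporter Slc2a4 was 10.00 ± 0.47 in controls and 7.43 ± 0.55 in restricted rats (SD, n = 4 each, change -2.57, adjusted p = 0.0956), while Adipoq was at -0.05, Fabp4 at -0.04 and Cfd at 0.12. The part of adipocyte RNA content in the adipose values of Lpl and of the genes below was not tested.

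In liver Lpl had much lower values than in adipose tissue, although levels of separately processed sets can only be set side by side. At day 4 it was 7.26, 7.32, 6.88 and 6.92 in controls and 7.01, 6.70, 6.91 and 6.08 in restricted rats, and the groups overlapped. The change was -0.42 (SE 0.22, 95% interval -0.93 to 0.09, limma adjusted p = 0.487), and without restricted 4, the lowest array, it was -0.22. At day 10 the controls ranged from 6.85 to 7.93 with 7.75, 6.85, 7.55, 7.93 and 6.99, and the restricted rats from 6.75 to 8.15 with 7.95, 7.44, 6.75, 8.15 and 7.05. The change was 0.05 (SE 0.32, 95% interval -0.67 to 0.77, adjusted p = 1.00), an interval of 0.630 to 1.70 times the control level. The order of the mean levels was adipose control, adipose restricted, liver day 10 restricted, liver day 10 control, liver day 4 control and liver day 4 restricted. Only the step from adipose tissue to liver separated neighbouring groups whose arrays did not overlap.

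Macrophages also make lipoprotein lipase, and markers of macrophages and Kupffer cells, the macrophages of the liver, are given beside these values. Of 9 measured markers 5 fell at day 4 and 8 at day 10, with none rising in either set, against 2.64% and 5.36% of all probe sets called lower. Counted by gene, 565 and 1159 of all 14217 were called lower. Their mean level was 8.82 to 9.01 in controls and 8.07 to 8.44 in restricted livers at day 4, and 9.40 to 9.79 and 8.29 to 8.86 at day 10. The median change of the list was -0.606 at day 4 and -1.10 at day 10. Red blood cell markers also moved at day 10, when 2 of 4 measured fell, from means of 6.09 to 7.15 in controls to 4.68 to 5.47 in restricted livers. Of 7 stellate cell and fibroblast markers 1 fell at day 4, the collagen gene Col3a1 (-1.32), and the list means were 5.80 to 5.90 in controls and 4.78 to 5.57 in restricted livers. At day 10 2 of these markers fell and 1 rose, and the list means overlapped, at 5.31 to 6.03 and 5.09 to 5.78. Of the adipocyte markers, the defining gene Adipoq was near background in liver (2.19 to 2.23 as group means), while Cidec (9.70 to 10.24) and Cfd (6.56 to 7.39) were above it. The list averaged 3.87 and 3.88 at day 4 and 4.21 and 4.28 at day 10 in control and restricted rats, with 6 and 5 of 8 at or below the median of all probe sets. The part of these cell types in the liver Lpl values was not tested.

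Lipc was measured well above the array median in liver and not in adipose tissue. In adipose tissue its values were 2.42, 2.41, 2.41 and 2.32 in controls and 2.45, 2.42, 2.42 and 2.39 in restricted rats, all below the median of the arrays, and no fold is given there. In liver at day 4 it was 13.30, 13.29, 13.36 and 13.41 in controls and 13.13, 12.84, 13.06 and 13.09 in restricted rats. Every restricted array lay below every control array, as was seen for 5.08% of all probe sets in that direction. The fall was 1.24-fold (log2 change -0.31, SE 0.06, n = 4 and 4, limma adjusted p = 0.0362, exact permutation p = 0.0286). This call was fragile: it was kept without restricted 2 (adjusted p = 0.0171) and lost without any other single array, control 1 to 4 or restricted 1, 3 or 4, with adjusted p from 0.0535 to 0.101 and changes from -0.34 to -0.25 over all 8 omissions.

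At day 10 Lipc was 13.17, 13.42, 13.58, 13.36 and 13.26 in controls and 13.37, 13.27, 13.13, 13.08 and 12.86 in restricted livers. The groups overlapped, with 3 of 5 restricted arrays below all controls. The change was -0.22 (SE 0.11, 95% interval -0.45 to 0.02, limma adjusted p = 0.313). It was -0.08 among the arrays of the first scan day and -0.28 among those of the second. The order of its mean levels was liver day 10 control, day 4 control, day 10 restricted and day 4 restricted, with overlapping arrays between all neighbours. The change at day 10 minus that at day 4 was 0.09 (SE 0.14, 95% interval -0.20 to 0.38, adjusted p = 1.00). Beside Lipc, the hepatocyte marker list had 1 of 7 measured members falling at day 4 and 2 rising and 1 falling at day 10, where 5.58% and 11.2% of all probe sets were called in either direction. Its mean level was 14.66 to 14.79 in controls and 14.59 to 14.91 in restricted livers at day 4, and 14.54 to 14.65 and 14.74 to 14.96 at day 10. The day 10 shift came mostly from Tat (1.89), with Cps1 at 0.13, Hpx at -0.19 and Ambp at 0.00. The part of hepatocyte RNA content in the liver values of Lipc, and of Angptl4 and Angptl8 below, was not tested.

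The second question was what happened to the inhibitors. Angptl4 in adipose tissue was 11.93, 11.48, 12.66 and 11.87 in controls and 12.69, 13.01, 13.17 and 13.07 in restricted rats. The groups did not overlap, though control 3, the highest control, lay just under restricted 1, the lowest restricted array. The difference was 1.00 (SE 0.24, 95% interval 0.42 to 1.57, n = 4 and 4), or 1.99-fold, and 0.493% of all probe sets changed by more. It did not pass the test over all probe sets (limma p = 0.00452, adjusted p = 0.295), and the exact permutation p of 0.0286 is the smallest that 4 against 4 arrays can give. Arrays that do not overlap, with the restricted higher, were seen for 2.20% of all probe sets in this set. Without control 3 the difference was 1.22.

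Adipose tissue was the set with the fewest calls: 17 of 31042 probe sets, or 0.0548%, passed limma, and 0 of the 4 members did. At an unadjusted p below 0.05 limma gave 2 of the 4, Lpl and Angptl4, against 7.69% of all probe sets. All 4 control arrays were scanned before the 4 restricted arrays on the same day, so scan order and diet cannot be told apart in this set. On both scan days of the day 10 livers, too, the controls were scanned before the restricted arrays, so a block for scan day does not separate diet from the order within a day.

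In the livers Angptl4 lay the other way. At day 4 it was 8.20, 9.24, 9.11 and 9.48 in controls and 7.59, 8.35, 8.34 and 8.52 in restricted rats. All controls but control 1 were above all restricted arrays. The change was -0.81 (SE 0.32, 95% interval -1.55 to -0.07, limma adjusted p = 0.269), with an exact permutation p of 0.114. At day 10 the controls were 10.17, 10.58, 11.12, 11.13 and 10.13 and the restricted rats 10.81, 9.82, 9.97, 9.15 and 8.83. Here 4 of 5 restricted livers lay below all controls, and restricted 1 lay among them.

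The day 10 change of Angptl4 was -0.91 (SE 0.38, 95% interval -1.78 to -0.05, limma adjusted p = 0.216, exact permutation p = 0.0635). The scan days differed in size, with -0.31 (SE 0.44) among 3 control and 2 restricted arrays of the first and -1.32 (SE 0.48) among 2 and 3 arrays of the second, and with scan day as a block the change was -0.81 (adjusted p = 0.298). The day 10 change minus the day 4 change was -0.10 (SE 0.53, 95% interval -1.24 to 1.03, adjusted p = 1.00). The interval leaves room for differences of more than 2-fold between the regimens in either direction.

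Whether the day 4 changes of Angptl4 differed between the tissues was tested directly. The change in adipose tissue exceeded that in liver by 1.81 (SE 0.42, 95% interval 0.90 to 2.71, limma adjusted p = 0.0318), and 3.41% of all probe sets were called in this test. This call was kept without adipose control 3, adipose restricted 1, liver control 1 or liver restricted 4. It was lost without any of the other 12 arrays, with differences from 1.60 to 1.86 and adjusted p from 0.0515 to 0.0660. Tissue, RNA extraction kit and processing run differ together between these sets and cannot be told apart. The fit takes the 16 arrays as separate rats, which rests on the series description. In level, Angptl4 was highest in restricted adipose tissue (12.98 ± 0.21, SD, n = 4), followed by control adipose tissue (11.99 ± 0.49). Liver day 10 controls (10.63 ± 0.49, n = 5) came next, and every neighbouring pair below them overlapped.

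**Figure D2:**
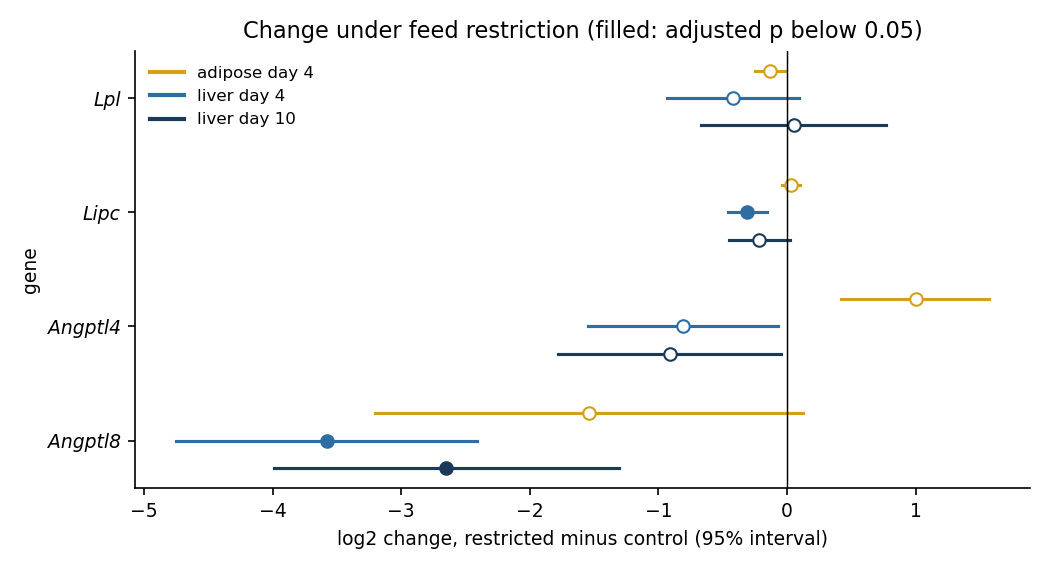
Log2 change of each member, restricted minus control (horizontal axis), with its 95% interval from limma (lines), in the 3 sets; filled points have an adjusted p below 0.05. Angptl4 has a positive value in adipose tissue (1.00) and negative values in liver (-0.81 and -0.91), and Angptl8 has the changes farthest from 0 (-1.54, -3.58 and -2.65).

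Angptl8 had the values farthest from 0 of the 4 genes in every set, and it fell in liver. In liver at day 4 it was 8.49, 8.44, 9.46 and 10.23 in controls and 4.99, 5.73, 5.10 and 6.48 in restricted rats, and the highest restricted array lay almost 2 log2 units below the lowest control. The fall was 12.0-fold (log2 change -3.58, SE 0.50, 95% interval -4.75 to -2.41, n = 4 and 4, limma adjusted p = 0.00771, exact permutation p = 0.0286). Only 0.0741% of all probe sets changed by more. Of the 4 members 2 were called at day 4, both lower, against 2.64% of all probe sets called lower and 5.58% called in either direction. The same 2 had arrays that did not overlap, as did 5.08% of all probe sets in that direction, and the median change was -0.62 for the members and 0.00911 for all probe sets.

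In liver at day 10 Angptl8 was 9.55, 7.93, 10.49, 9.19 and 10.09 in controls and 7.82, 5.56, 7.33, 7.39 and 5.88 in restricted rats. The groups were separated by a narrow margin, between control 2 and restricted 1. The fall was 6.29-fold (log2 change -2.65, SE 0.59, 95% interval -3.99 to -1.31, n = 5 and 5, limma adjusted p = 0.0189, exact permutation p = 0.00794, the smallest that 5 against 5 arrays can give). It was the 1 called member of 4, against 5.36% of all probe sets called lower and 11.2% called in either direction. It was also the 1 without overlapping arrays, against 5.48% in that direction, and the median change was -0.57 for the members and 0.00309 for all probe sets. Without control 5 the change was -2.49 and the adjusted p 0.0515. Within the scan days it was -2.63 (SE 1.10, adjusted p = 0.511) and -2.77 (SE 0.61, adjusted p = 0.110), and with scan day as a block -2.70 (SE 0.64, adjusted p = 0.0318).

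The 10-day change of Angptl8 minus the 4-day change was 0.93 (SE 0.83, 95% interval -0.84 to 2.70, limma adjusted p = 1.00), in a test that called 0.654% of all probe sets. The regimens, the form of the feed and the processing runs differ together and cannot be told apart.

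In adipose tissue Angptl8 was 6.71, 7.59, 4.98 and 7.33 in controls and 3.69, 5.21, 5.83 and 5.73 in restricted rats. Control 3, which had the highest Angptl4 of the controls, had the lowest Angptl8 and lay among the restricted rats, and restricted 1 lay below the median of its array set. The difference was -1.54 (SE 0.70, 95% interval -3.20 to 0.12, limma adjusted p = 0.689, exact permutation p = 0.114), and without control 3 it was -2.10 and without restricted 1 -1.06. The change in adipose tissue minus that in liver was 2.04 (SE 0.90, 95% interval 0.10 to 3.99, adjusted p = 0.344), and the same contrast for Lpl was 0.28 (SE 0.23, 95% interval -0.22 to 0.78, adjusted p = 0.807).

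Angptl8 is made in liver as well as in fat, and hepatocyte markers are given beside its adipose values. Their mean level was 6.13, 5.04, 4.96 and 4.87 in adipose controls 1 to 4 and 4.11, 4.20, 4.39 and 4.19 in restricted rats. All controls lay above all restricted arrays, and the share of all probe sets that did so is not given here. Albumin (Alb), a defining hepatocyte gene, was high in both groups, at 14.19 ± 0.32 in controls and 13.60 ± 0.47 in restricted rats (SD, n = 4 each), while the defining gene Tat was near background, at 1.83 and 1.85. Of the 7 measured markers 0 were called, 4 in controls and 6 in restricted rats lay at or below the median of all probe sets, and the median change was -0.55. The urea cycle enzyme Cps1 was 8.50, 6.30, 5.35 and 5.28 in controls and 2.69, 2.66, 3.76 and 2.59 in restricted rats. Lipc was near background on all 8 adipose arrays, as given above. The part of liver-type transcripts in the adipose Angptl8 values was not tested.

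The mean levels of Angptl8 followed the order liver day 10 control (9.45 ± 0.99, SD, n = 5), liver day 4 control (9.16 ± 0.86, n = 4), liver day 10 restricted (6.80 ± 1.01, n = 5), adipose control (6.66 ± 1.17, n = 4), liver day 4 restricted (5.57 ± 0.69, n = 4) and adipose restricted (5.12 ± 0.99, n = 4). Only the step from control liver to the rest separated neighbours whose arrays did not overlap.

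The members also differed in how much arrays of the same group varied. With 1 array per rat, variation among rats and variation of the measurement cannot be told apart. The within-group SD of Angptl8 was 1.09 for adipose tissue, 0.778 for day 4 livers and 0.996 for day 10 livers, above 99.2%, 99.1% and 99.6% of the probe sets whose mean reached 5. The median SD of those probe sets was 0.210, 0.142 and 0.157. Angptl4 was also variable, with SDs of 0.376, 0.492 and 0.644. Lpl varied little in adipose tissue (0.0704, above 4.02% of these probe sets) and much more in liver (0.337 and 0.534, above 91.0% and 96.7%). Its adipose values lay within 1 log2 unit of the highest array values, and the part of this in the low SD was not tested. Lipc in liver had SDs of 0.0980 and 0.176.

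The genes whose pattern was most like a member were sought for Angptl8, the member called with a change of at least 1. Likeness was the root mean square difference between log2 values centred on the mean of each set over all 26 arrays, and 8608 genes with a group mean of at least 6 were compared. The closest were Acly, which makes cytosolic acetyl-CoA from citrate (0.88), Fasn, the fatty acid synthase (0.91), and Cmtm6, a membrane protein known for stabilising the immune checkpoint ligand PD-L1 (0.95). The median over all genes compared was 1.60, and Angptl8 itself had a root mean square of 1.60 around its set means.

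The 3 changes of Acly (adipose tissue, then day 4 and day 10 livers) were -0.92, -3.24 and -2.06 (adjusted p = 0.293, 0.00187 and 0.00217 by limma). Those of Fasn were -2.41, -4.15 and -2.77 (adjusted p = 0.115, 0.000633 and 0.00284). Those of Cmtm6 were -0.58, -2.18 and -2.97 (adjusted p = 0.376, 0.000348 and 9.15e-06), and its value at day 10 was farther from 0 than at day 4, unlike that of the other 3 genes, a difference that was not tested. This likeness is a description over arrays that include both diets, and it carries no test.

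**Figure D3:**
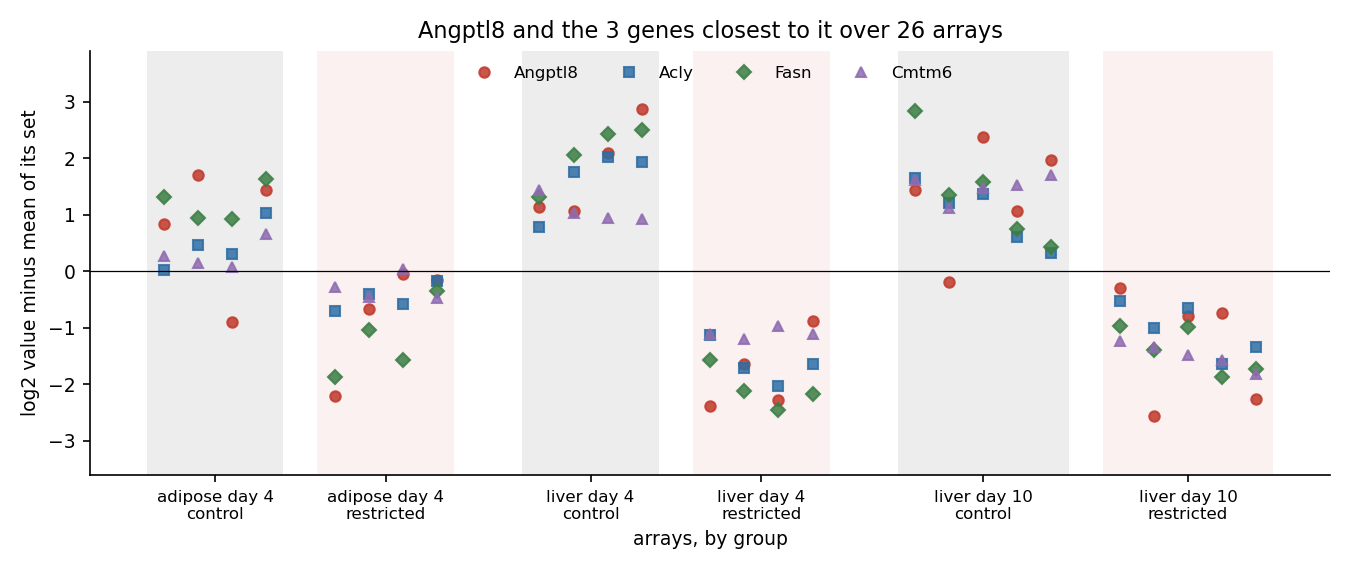
Log2 values of Angptl8, Acly, Fasn and Cmtm6 minus the mean of their set (vertical axis) on each of the 26 arrays, by group (horizontal axis; grey bands control, red bands restricted). In liver the restricted arrays lie below 0 for all 4 genes, and Angptl8 departs from the others in adipose control 3 (-0.90) and liver day 10 control 2 (-0.19).

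Other genes of the same pathway were taken from lists of 51 genes besides the members, of which 45 were measured. In adipose tissue 0 of them passed limma, with 6 at an unadjusted p below 0.05, where 7.69% of all probe sets lay, and a median change of -0.08. In liver 7 rose and 2 fell at day 4 (median 0.06), and 11 rose and 4 fell at day 10 (median 0.01), where 2.94% and 2.64% of all probe sets were called higher and lower at day 4, and 5.82% and 5.36% at day 10. Counted by gene, as these lists and the marker lists are, 644 of all 14217 genes rose and 565 fell at day 4. At day 10 1233 rose and 1159 fell. With scan day as a block all day 10 calls of the listed genes but that of Creb3l3 were kept, and on the arrays of a single scan day each was lost in at least 1 of the 2 days. In the plot of these lists Angptl8 lies farthest from 0 in both liver panels, and Apoc3 (-1.99) in adipose tissue.

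**Figure D4:**
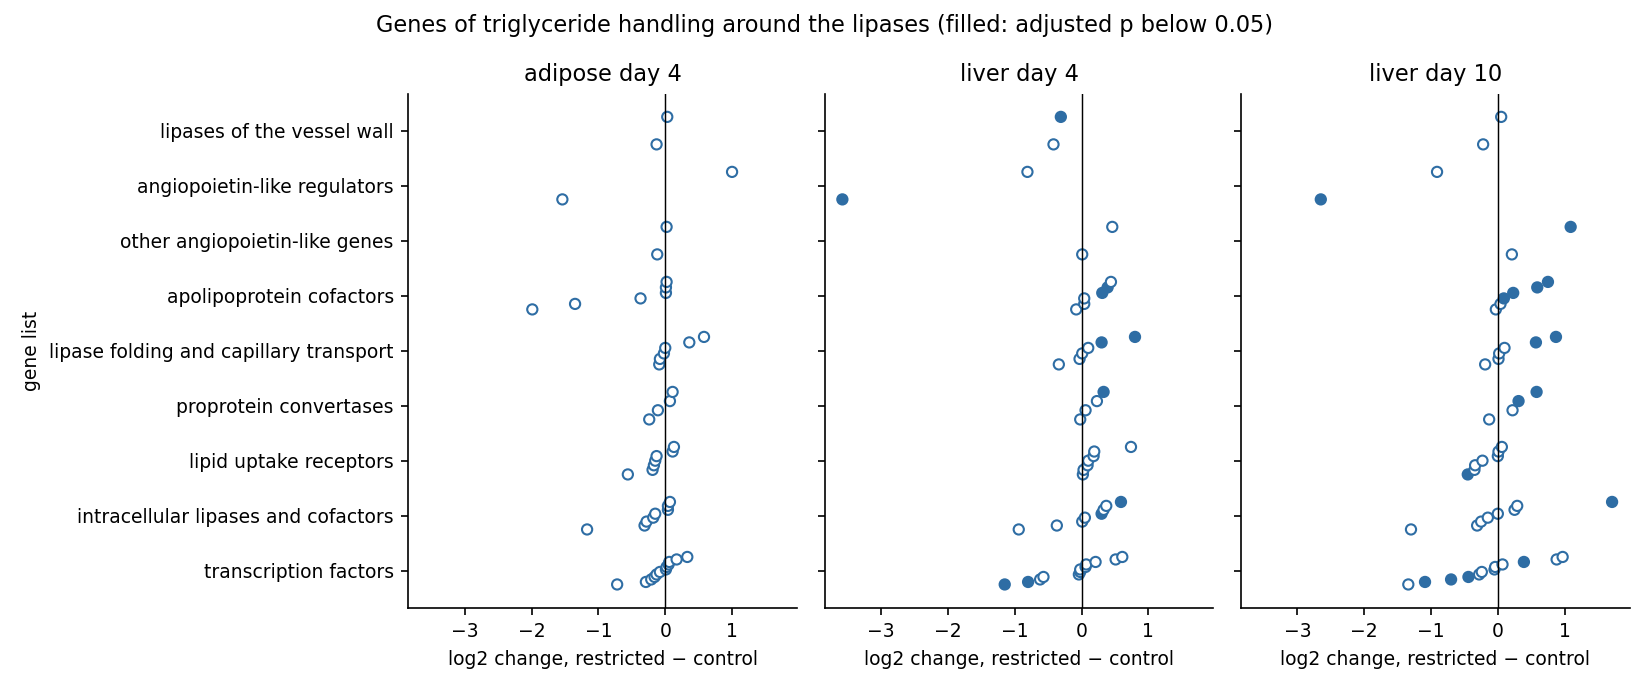
Log2 change, restricted minus control (horizontal axis), of each measured gene of the 9 pathway lists (rows, members included) in adipose tissue at day 4, liver at day 4 and liver at day 10; filled points have an adjusted p below 0.05 by limma. No point is filled in adipose tissue, and the point farthest from 0 in each liver panel is Angptl8 (-3.58 and -2.65).

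In the list of apolipoprotein cofactors, 2 of 6 rose at day 4 and 4 of 6 at day 10 in liver, and 0 fell. Of all 14217 genes 644 and 1233 rose. Apoc2, the obligatory cofactor of the enzyme, rose by 0.31 (SE 0.04, adjusted p = 0.00479) and 0.23 (SE 0.04, adjusted p = 0.00426). Its neighbour in the same gene cluster, Apoc4, rose by 0.39 (SE 0.04, adjusted p = 0.00373), from 11.92 to 12.05 in controls to 12.27 to 12.42 in restricted livers. At day 10 Apoc4 rose by 0.59 (SE 0.07, adjusted p = 0.000797).

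Apoa5, an apolipoprotein that favours lipolysis by lipoprotein lipase, rose at day 10 by 0.75 (SE 0.11, adjusted p = 0.00267). It was 12.56, 12.92, 13.22, 12.68 and 12.98 in controls and 13.66, 13.61, 13.50, 13.63 and 13.70 in restricted livers. Apoc1, an inhibitor of the enzyme, rose by 0.09 (SE 0.02, adjusted p = 0.0218). The Apoc1 call was lost without control 1 or 3 or restricted 3, 4 or 5. In adipose tissue Apoc3, an inhibitor of lipoprotein lipase made chiefly in liver, had 7.84, 6.66, 6.00 and 6.22 in controls and 4.25, 4.86, 4.89 and 4.76 in restricted rats (change -1.99, SE 0.40, adjusted p = 0.212). Of the 7 hepatocyte markers given above 0 were called there. Their changes ran from -3.43 for Cps1 and -2.41 for Ttr to -0.03 for Ambp and 0.02 for Tat. The part of liver-type transcripts in the adipose Apoc3 values was not tested.

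Among genes that fold, carry or anchor the enzyme, 2 of 6 rose in liver in each set. Of all 14217 genes 644 rose at day 4 and 1233 at day 10. Sdc1, a heparan sulphate proteoglycan that binds lipoprotein remnants on hepatocytes, rose by 0.80 (SE 0.10, adjusted p = 0.00599) at day 4 and by 0.57 (SE 0.08, adjusted p = 0.00221) at day 10. Its relative Sdc4 rose by 0.87 at day 10 (SE 0.14, adjusted p = 0.00310), while its day 4 value was -0.34 (SE 0.09, adjusted p = 0.102). Sel1l, needed for folded lipoprotein lipase to leave the endoplasmic reticulum, rose by 0.30 at day 4 (SE 0.06, adjusted p = 0.0284). The Sel1l call was lost without control 1, 3 or 4 or restricted 1, 2 or 3. Gpihbp1, which carries the enzyme across the capillary wall, was 9.98, 10.07, 10.15 and 10.69 in adipose controls and 10.52, 10.83, 10.28 and 10.71 in restricted rats (change 0.36, SE 0.18, adjusted p = 0.706), and it lay below the median of all arrays in liver, between 2.34 and 2.51.

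Proprotein convertases cleave lipoprotein lipase and Angptl4 into smaller forms. Furin rose by 0.33 (SE 0.03, adjusted p = 0.00149) in liver at day 4, from 10.43, 10.50, 10.53 and 10.45 to 10.82, 10.84, 10.79 and 10.76, and by 0.31 (SE 0.06, adjusted p = 0.00624) at day 10. Pcsk6 rose by 0.58 at day 10 (SE 0.06, adjusted p = 0.000421). The 4 convertases had 0 called members in adipose tissue, where Furin was at 0.11 (SE 0.13, adjusted p = 0.706) and Pcsk6 at -0.24 (SE 0.23, adjusted p = 0.706).

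Of the other angiopoietin-like genes, Angptl6, a factor secreted by the liver that raises energy expenditure in mice, rose by 1.09 at day 10 (SE 0.14, adjusted p = 0.00127). It was 7.68, 7.52, 7.67, 8.15 and 7.53 in controls and 8.92, 9.01, 8.47, 8.68 and 8.93 in restricted livers, opposite in direction to Angptl8 in the same arrays. At day 4 its change was 0.46 (SE 0.19, adjusted p = 0.302). Angptl2, made by fat cells among others, was not called in any set, with 10.45 ± 0.26 in control and 10.34 ± 0.20 in restricted adipose tissue (SD, n = 4 each).

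Among transcription factors linked to these genes, Srebf1, the insulin-induced driver of fat synthesis, fell in liver by 1.15 at day 4 (SE 0.13, adjusted p = 0.00317) and by 1.09 at day 10 (SE 0.24, adjusted p = 0.0180). Mlxipl, the glucose-sensing factor ChREBP, fell by 0.80 (SE 0.07, adjusted p = 0.00161) and by 0.70 (SE 0.18, adjusted p = 0.0398). The day 10 call of Mlxipl was lost without control 1, 2, 3 or 4 or restricted 2, 4 or 5. The glucocorticoid receptor Nr3c1 fell by 0.44 at day 10 (SE 0.10, adjusted p = 0.0171). Creb3l3, a liver factor that controls several of these apolipoproteins, rose by 0.39 at day 10 (SE 0.10, adjusted p = 0.0402), a call kept only without restricted 5. Its day 4 value was 0.61 (SE 0.14, limma adjusted p = 0.0521) and was not called. In all, 2 of 12 measured factors fell at day 4, and 3 fell and 1 rose at day 10. Of all 14217 genes 565 fell at day 4, and 1159 fell and 1233 rose at day 10.

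Of lipid uptake receptors 1 of 7 was called, Lrp1, a receptor for lipoprotein remnants, which fell by 0.45 in liver at day 10 (SE 0.11, adjusted p = 0.0259). This count is near the share of all probe sets called in either direction at day 10, 11.2%. Counted by gene, 1233 of all 14217 rose and 1159 fell at day 10, and 644 rose and 565 fell at day 4. The Lrp1 call was lost without control 1, 3, 4 or 5 or restricted 4. Of 8 intracellular lipases and cofactors, Pnpla2, the adipose triglyceride lipase, rose in liver at day 10 by 1.71 (SE 0.35, adjusted p = 0.0124). It was 7.90, 7.72, 8.01, 7.89 and 8.03 in controls and 9.03, 9.15, 9.16, 9.75 and 11.00 in restricted livers. At day 4 Lipa, the lysosomal acid lipase, rose by 0.59 (SE 0.11, adjusted p = 0.0235) and Mgll, the monoglyceride lipase, by 0.30 (SE 0.07, adjusted p = 0.0433). The Lipa call was lost without control 1 or 3 or restricted 1, 2 or 3, and the Mgll call without control 2, 3 or 4 or restricted 1, 3 or 4.

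Some of these liver calls also depended on the processing. In 1 fit of all 26 arrays the calls of Apoc1, Sdc4 and Mlxipl at day 10 and of Mlxipl, Mgll and Sel1l at day 4 were lost. Quantile normalization ended those of Apoc1, Creb3l3, Lrp1 and Mgll. Centring the arrays on their medians ended those of Apoc1, Creb3l3, Mgll and Sel1l. Array weights ended that of Sel1l, a trend with robust estimation those of Apoc1 and Mgll, and the filter on a mean of at least 5 that of Apoc1.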

How the data were processed

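RNA of 26 rat tissue samples was hybridised to Rat230_2 arrays, per the file headers. Per the submitters' processing notes the authors used R 2.4.1, affy 1.12.2, RMA and GCRMA 2.6.0; which of the last 2 made the values is not given in the sources used here. The deposited values are log2 expression values, which the authors processed separately for each of 3 sets, per the labels. They were used as deposited. RNA came from separate extraction kits for adipose tissue and liver, per the labels' protocols.

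Of the probe sets, 57 controls were left out and 31042 tested; 20826 had 1 gene symbol (20758 with a gene ID in the current table), 436 several and 9780 no gene named here. A gene was shown by its probe set with the highest mean. The tests within a set came from limma 3.58.1 (R 4.3.3) (two-sided, Benjamini-Hochberg over all probe sets, threshold 0.05), and differences between changes in 1 fit of both sets. Exact permutation tests used scipy 1.17.1, figures matplotlib 3.10.9. The limma procedure was tested on simulated data. Scan times came from records written by the scanner and deposited for the adipose and day 10 arrays; the unit of their other fields is text. Scan records for liver day 4 were not used here.

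Members and lists were chosen with earlier results of these data known. Named genes are the members, up to 4 called genes per list by size (up to 2 by size where none was called), and the 3 genes most like a called member with a change of at least 1. Same-numbered restricted and control arrays correlated between -0.390 and 0.233 in their deviations from group means, so the numbers were not treated as pairs. The series description gives 1 array per animal, and the p-values rest on that. Precision is limited by having 4 or 5 arrays per group.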

Additional observations from a re-analysis of the deposited data

Results flagged for a closer look

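Among 108 groups of arrays behind the named genes, 5 had an array set far apart from the others by Dixon's test, about the share of 1 in 20 that chance gives. For Lpl in restricted adipose tissue it was replicate 4, at 15.68 against 15.56 to 15.57. For Angptl6 it was adipose control 4, at 1.79 near background, and liver day 10 control 4, at 8.15. For Mlxipl it was adipose control 4, at 6.00 against 4.16 to 4.39 in the other controls. For Lipa it was liver day 4 restricted 3, at 11.89.

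The change of Angptl4 differed between the tissues at day 4, being 1.81 higher in adipose tissue than in liver by the test of the difference (limma adjusted p = 0.0318). This call was lost without any of 12 of the 16 arrays. Tissue, RNA extraction kit and processing run differ together between these sets and cannot be told apart.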

How the results depend on the processing

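The fall of Angptl8 in liver at day 4 stayed called under all 8 other settings and without any single array (-3.88 to -3.22). At day 10 it ranged from -3.03 to -2.34 without single arrays and lost its call on scan day 1 alone (-2.63) and scan day 2 alone (-2.77), where fewer arrays were fitted. Lipc in liver at day 4 lost its call with the replicate number as a block (-0.31, adjusted p = 0.0681) and ranged from -0.34 to -0.25 without single arrays. Angptl4 gained a call in liver at day 4 with the replicate block (-0.81, adjusted p = 0.0229), and at day 10 with array weights (-1.27, adjusted p = 0.0176); the cause was not tested. In adipose tissue (1.00) its exact p of 0.0286 is below 0.05 without adjustment and is no call. The adipose minus liver difference of Angptl4 stayed called under the 6 other settings (1.79 to 1.94) but was lost without 12 of the 16 single arrays (1.60 to 2.08 over all of them). Uncalled values changed sign: Lpl at day 10 on scan day 2 alone (-0.14) and without single arrays (-0.12 to 0.23), Angptl4 between regimens without single arrays (-0.38 to 0.17), Lipc in adipose tissue with centred arrays (-0.0013), Angptl6 in adipose tissue with quantile normalization (-0.00075) and centred arrays (-0.013), Sdc4 there, at 0.58, with array weights (-0.14), Furin there without single arrays (-0.01 to 0.19), and Angptl2 in liver at day 4 with centred arrays (-0.0047), array weights (-0.11) and without single arrays (-0.07 to 0.08). The cause was not tested.

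Called probe sets in adipose tissue numbered 17, against 1389 in 1 fit of all 26 arrays, 1187 with array weights, 3 with centred arrays, 29 at a mean of at least 5, 9 with quantile normalization, 0 with the replicate block and 0 to 15 without single arrays. In liver at day 4 they numbered 1732, against 2723 with array weights, 987 with the replicate block and 1091 to 1744 without single arrays. At day 10 they numbered 3471, against 567 and 1240 on scan days 1 and 2 alone. Same-numbered arrays did not deviate together in any set, and the replicate block changed no other call of the 4 genes. Of 702 values of the 42 results on other named genes under alternatives, 89 lost and 7 gained a call. None of the 4 genes had a further probe set, and the adipose arrays shared 1 scan day, so those alternatives were not run. Depth cannot be given for arrays; Lipc in adipose tissue lay at background.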

Other observations

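G0s2, an inhibitor of the triglyceride lipase Pnpla2, is described here after its values were seen. Its difference from controls was -1.17 in adipose tissue (SE 0.31, adjusted p = 0.329), -0.94 in liver at day 4 (SE 0.37, adjusted p = 0.270) and -1.30 in liver at day 10 (SE 0.44, adjusted p = 0.110), and limma called none of these. In adipose tissue it was 13.44, 13.30, 12.22 and 13.10 in controls and 12.03, 12.28, 11.60 and 11.45 in restricted rats. Control 3, the control with the lowest Angptl8 and the highest Angptl4, also had the lowest G0s2 among controls. This array had the highest control means of endothelial markers (9.85, against 8.71 to 9.15) and of stellate cell and fibroblast markers (10.9, against 10.1 to 10.29). Adipose restricted 1 had the highest of the restricted rats (9.75 and 10.88). The part of these cell types in the adipose values was not tested. In liver at day 10 G0s2 was 12.86, 12.43, 13.25, 13.01 and 12.92 in controls and 12.31, 12.15, 12.10, 11.53 and 9.88 in restricted rats. All restricted arrays lay below all controls by a narrow margin, as was seen for 5.48% of all probe sets in that direction. Restricted 5 had the lowest G0s2 (9.88) and the highest Pnpla2 (11.00) of the restricted livers.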
